A study of Mus musculus with 6 samples.

Results

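The genes described here run the mechanics of mitosis: the mitotic cyclins and kinases, the checkpoint and its ubiquitin ligase, the kinetochore, the kinesins, and the proteins of the spindle, midzone and condensed chromosome. They were a list of 45 gene symbols. Every probe set of the Mouse Genome 430 2.0 array that the platform annotation assigns to one of these symbols alone was taken, which gave 101 of the array's 45037 probe sets that are not controls, for 44 of the 45 genes. Ccnb1, which encodes cyclin B1, had no such probe set and was not analysed here. No measured value entered the choice of probe sets.

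The samples were 32D cells, a mouse bone marrow line that needs interleukin-3, of strain C3H/HeJ and with Friend leukemia virus in its origin per the labels. One group of 3 samples was mock-transduced with the retroviral vector MSCVpuro, and the other group of 3 carried the Nup98::Nsd1 fusion gene, a fusion of acute myeloid leukemia. Each sample was 1 array hybridized with biotinylated cRNA made from total RNA. The study was designed to explore what the fusion does to gene expression. No label says whether the cells were 1 clone or a pool, or whether the samples of a group were grown apart, so every p-value rests on a spread between samples that may be technical. A change in a bulk RNA sample cannot tell apart a different share of cells in mitosis and a different amount of RNA in each such cell.

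Entry into mitosis is driven by Cdk1 bound to cyclin A or cyclin B and released from inhibition by Cdc25 phosphatases. Polo-like and Aurora kinases then mature the spindle poles, bring about chromosome attachment and, with the chromosomal passenger complex, correct wrong attachments. The kinetochore, built on the centromeric histone Cenpa, holds microtubules through the Ndc80 complex. The spindle assembly checkpoint holds back the anaphase-promoting complex, or APC/C, until all kinetochores are attached. Kinesins move chromosomes and slide microtubules, and midzone proteins position the cleavage furrow. Many of these genes are transcribed late in the cell cycle, under the MuvB complexes with B-Myb and Foxm1, and are silenced in resting cells by the DREAM complex.

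The arrays were alike within groups. The correlation of log2 signals over tested probe sets was 0.989 to 0.992 within groups and 0.929 to 0.936 between groups. Detection was somewhat wider in Nup98::Nsd1 cells, with 47.5% to 48.2% of probe sets Present against at most 45.8% on a mock array. The ratio of 3′ to 5′ control signal of Actb, a measure of RNA or cRNA length, was 1.15 to 1.20 on the mock arrays and 1.45 to 1.50 on the Nup98::Nsd1 arrays, and that of Gapdh was 0.742 to 0.770 and 0.799 to 0.843. These ratios therefore moved with the groups, and the part of RNA or cRNA length in the changes of the mitotic genes was not tested. Of 12 myeloid progenitor markers, 9 were Present on all 6 arrays, among them Ptprc, Spi1, Mpo, Prtn3, Ctsg and Myb. Their levels did not stay alike between the groups. On the log2 scale Mpo fell by 1.88 and Prtn3 by 0.92, while Il3ra rose by 1.72 and Ptprc by 0.39. Elane was Present on the mock arrays only, and Cd34 and Kit were Present on none. Of the T and NK cell markers with a probe set, 4 of 5 were Present on no array and Ncr1 on 1, and no fibroblast marker was Present on more than 1 array. The B cell marker Cd79b and the erythroid marker Epor were Present on all 6 arrays, and neither change passed the threshold. The B cell markers Cd79a and Pax5 were Present on no array, and Ms4a1 on 1 array of each group. The erythroid marker Klf1 was Present on 3 mock arrays and 1 Nup98::Nsd1 array and fell by 0.95 (limma adjusted p = 1.33e-04), and its part in the results was not tested.

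In Nup98::Nsd1 cells most mitotic genes were moderately higher and a smaller set was lower, on the scale of the deposited signals. Mki67, the proliferation antigen that coats mitotic chromosomes, rose most, 2.15-fold, and Ect2, Cdc25b, Plk4, Ndc80 and Cenpe rose by 1.81-fold to 1.91-fold. Aurkb, the kinase of the passenger complex, fell most, to a level 1.58-fold lower, followed by the kinetochore genes Spc24 and Nuf2 at 1.47-fold and 1.46-fold lower. Each gene was represented by its brightest tested probe set, where a probe set was tested if all 3 arrays of either group called it Present. All 44 genes had a tested probe set, and 43 of these were Present on all 6 arrays. By limma with Benjamini-Hochberg adjustment over 20494 probe sets and a threshold of 0.05, 32 of the 44 (72.7%) were higher, 7 (15.9%) were lower and 5 did not pass.

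These shares stand beside a wide response of the whole array. Of all 9641 tested genes, 42.9% were called higher and 29.5% lower. The counts by role below are on the same scale and are to be read beside these shares. The median log2 fold change was 0.24 over the mitotic genes and 0.12 over all genes. Large changes were rare among the mitotic genes: 1 of 44, Mki67, was called and changed 2-fold or more, whereas 9.53% of all tested genes rose and 2.60% fell by that much. All 3 Nup98::Nsd1 arrays lay above all 3 mock arrays for 31 mitotic genes and below for 8, and the groups overlapped for 5. The same counts over all tested genes were 44.5% above and 30.5% below. Counted by probe set, 62 of the 87 tested probe sets of mitotic genes were higher, 12 were lower and 13 did not pass, against 42.3% higher and 27.6% lower of all tested probe sets. The other 14 probe sets were not tested, 8 of them called Absent on all 6 arrays.

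**Figure D1:**
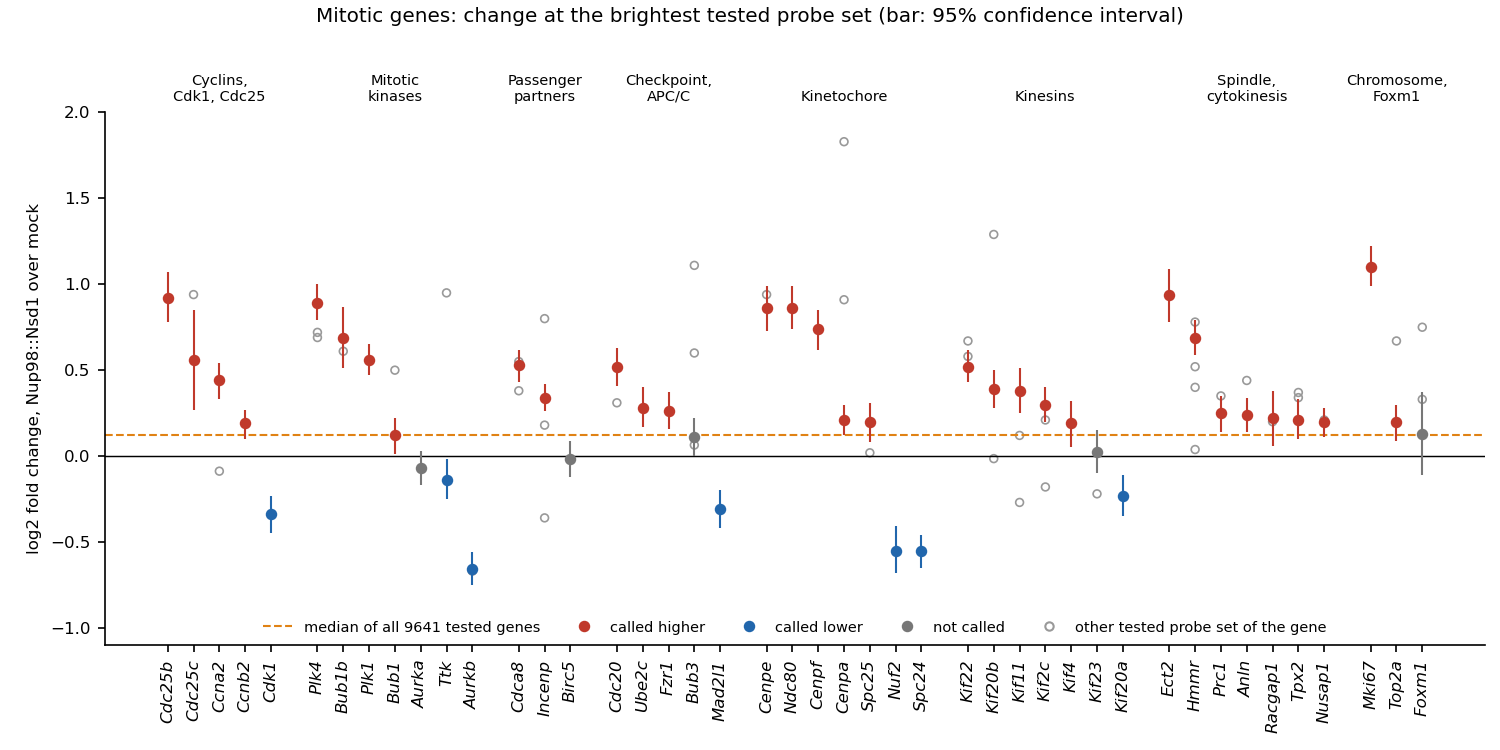
Log2 fold change of Nup98::Nsd1 over mock (vertical axis) for the 44 mitotic genes (horizontal axis), grouped by role. Filled points are the brightest tested probe set with its 95% confidence interval, coloured by call at an adjusted p of 0.05; open circles are the gene's other tested probe sets, and the dashed line is the median of all 9641 tested genes (0.12). The points run from Aurkb at -0.66 to Mki67 at 1.10.

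Among the cyclins and their kinase, the regulators moved up on the scale of the deposited signals while Cdk1 itself moved down. Of the 5 genes tested, 4 rose and 1 fell. With the scaling to hybridization controls described below, 1 of the 5 was higher and 2 were lower, among these Ccnb2 (-0.18). Cdc25b, a phosphatase that activates Cdk1 at mitotic entry, had signals of 623, 639 and 695 in mock and 1178, 1282 and 1245 in Nup98::Nsd1 cells. The groups lay far apart, a log2 change of 0.92 ± 0.067 (SE; limma adjusted p = 2.36e-07). Cdk1, the master kinase of mitosis, had signals of 5489.8, 5534 and 5625 in mock and 4516, 4068 and 4563 in Nup98::Nsd1 cells, without overlap, and fell by 0.34 ± 0.049 (limma adjusted p = 6.71e-05). Cdc25c, the other mitotic phosphatase, rose by 0.56, with Nup98::Nsd1 signals of 578 to 734 above mock signals of 373 to 531. Ccna2, or cyclin A2, rose by 0.44 at its brightest probe set, while its other probe set, with a like mean in mock (3409.6 against 3409.9), changed by -0.088 (limma adjusted p = 0.156). Ccnb2, or cyclin B2, rose by 0.19, from a mean signal of 4874 ± 156 to 5541 ± 55.7 (SD, n = 3).

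The mitotic kinases were split between rises in the Polo-like kinases and Bub1b and a fall in Aurkb. Of 7 kinases, 4 rose (57.1%), 2 fell (28.6%) and Aurka did not pass, beside 42.9% higher and 29.5% lower of all tested genes. Plk4, which controls centriole duplication, had mock signals of 1958, 2077 and 2067 and Nup98::Nsd1 signals of 3714, 3703 and 3927. That is a log2 change of 0.89 ± 0.046 (limma adjusted p = 1.66e-08), and both other Plk4 probe sets rose as well, by 0.69 and 0.72. Plk1, which acts at spindle poles, kinetochores and the midzone, rose by 0.56 from a mean of 2434 ± 32.5 to 3583 ± 77.1, and Bub1b, the checkpoint protein BubR1, rose by 0.69 and 0.61 at its probe sets. Aurkb had mock signals of 2828, 2919.9 and 2826 and Nup98::Nsd1 signals of 1837, 1767 and 1836. It fell by 0.66 ± 0.044 (limma adjusted p = 1.33e-07), and its other probe set fell by 0.67. Aurka, the spindle pole kinase related to Aurkb, went from a mean of 2690.1 ± 78.6 to 2564 ± 65.8 (log2 -0.069, limma adjusted p = 0.19), although its Nup98::Nsd1 arrays all lay below the mock arrays.

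The remaining kinases of the checkpoint had the least settled values of the group. Ttk, the checkpoint kinase Mps1, had mock signals of 1674, 1687 and 1678 and Nup98::Nsd1 signals of 1481, 1607 and 1501 at its brightest probe set. These do not overlap and gave a fall of 0.14 (limma adjusted p = 0.0319). At its dimmer probe set the signals were 133, 112 and 116 in mock and 232, 250.4 and 216 in Nup98::Nsd1 cells, a rise of 0.95 (limma adjusted p = 1.14e-04). The direction of Ttk thus depended on the probe set. Bub1, which recruits checkpoint proteins to the kinetochore, rose by 0.12 (limma adjusted p = 0.0415). Leaving out single arrays moved its adjusted p between 0.00986 and 0.129, and that of Ttk between 0.0147 and 0.11. The Bub1 call was lost without any one array other than mock 1, and the Ttk call without any one array other than Nup98::Nsd1 2.

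**Figure D2:**
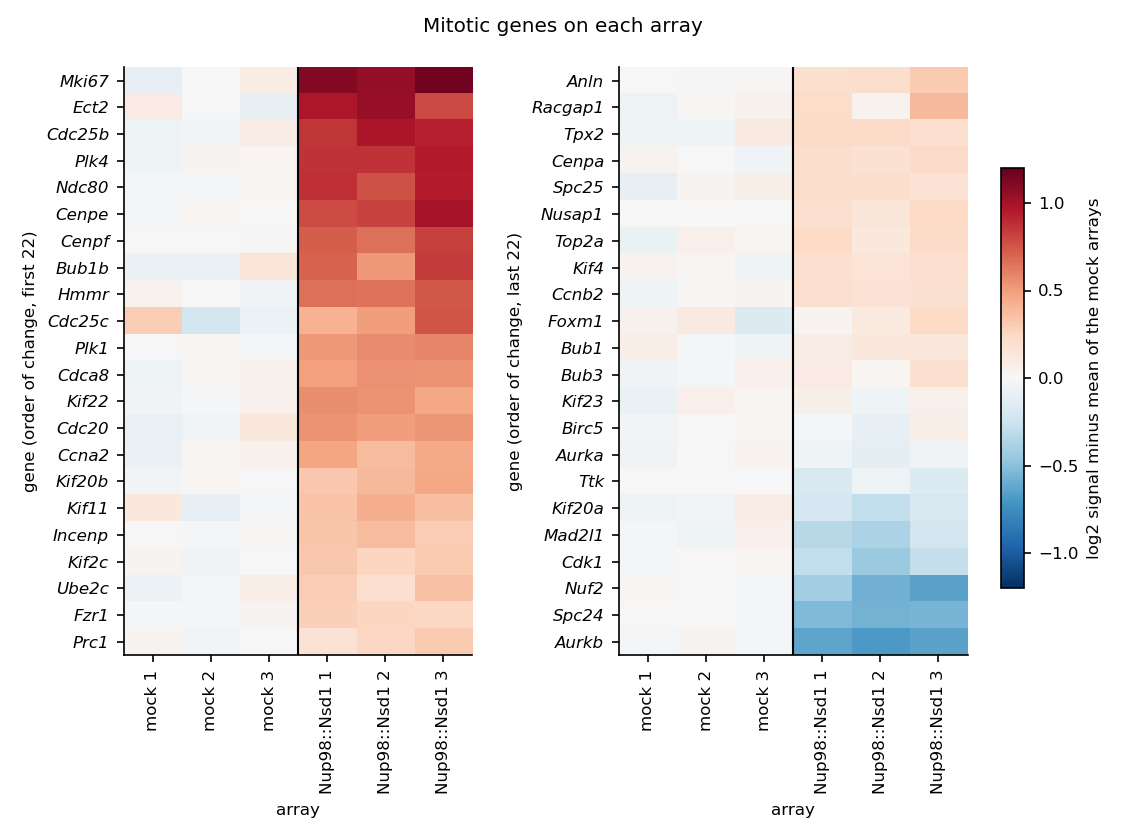
Log2 signal of each mitotic gene on each array minus the mean of the 3 mock arrays (colour), with genes in rows by order of change and the 6 arrays in columns. Genes from Mki67 to Hmmr are red on all 3 Nup98::Nsd1 arrays, Spc24 and Aurkb are blue on all 3, and Bub3, Kif23, Birc5, Foxm1 and Racgap1 have Nup98::Nsd1 signals that overlap the mock signals.

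On the scale of the deposited signals, the partners of Aurkb in the chromosomal passenger complex were not called lower with it. Of the 3 partners, 2 rose and Birc5 did not pass. Cdca8, or borealin, which with Birc5 docks the complex on the centromere, had mock signals of 5759, 6046 and 6219 and Nup98::Nsd1 signals of 8436, 8798 and 8738. It rose by 0.53 ± 0.042 (limma adjusted p = 5.47e-07), and its other 2 probe sets rose by 0.38 and 0.55. Incenp, the scaffold that binds and activates Aurkb, had mock signals of 7839.5, 7719 and 7871 and Nup98::Nsd1 signals of 9810.3, 10172 and 9664 at its brightest probe set, a rise of 0.34. Its 4 tested probe sets did not agree: 2 others rose by 0.18 and 0.80, and 1 fell by 0.36, from signals of 995, 1102 and 1016 to 839, 752 and 832. Birc5, or survivin, went from a mean of 6101 ± 131 to 6039 ± 348, with overlapping arrays (log2 -0.016, limma adjusted p = 0.776). Of the 5 scalings described below, Birc5 was called lower under 3 and higher under 1.

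Of the 5 genes of the checkpoint and the APC/C, 3 rose, 1 fell and 1 did not pass. Cdc20, the activator of the APC/C at anaphase and the target of the checkpoint, had mock signals of 9074, 9429 and 10503 and Nup98::Nsd1 signals of 13986, 13628 and 13907. The log2 change was 0.52 ± 0.052 (limma adjusted p = 3.49e-06), and the other Cdc20 probe set rose by 0.31. Mad2l1, the checkpoint protein Mad2 that binds Cdc20, moved the other way. Its signals were 6179, 6009 and 6521 in mock and 4937, 4802 and 5343 in Nup98::Nsd1 cells, a fall of 0.31 ± 0.05 (limma adjusted p = 1.70e-04). Fzr1, or Cdh1, which takes over from Cdc20 late in mitosis, rose by 0.26, and Ube2c, the ubiquitin-conjugating enzyme of the APC/C, rose by 0.28. Bub3, the partner of Bub1 and Bub1b, changed by 0.11 (limma adjusted p = 0.0777). It passed when mock 3 or Nup98::Nsd1 2 was left out (adjusted p = 0.0358 and 0.0288), and a dimmer probe set, with signals of 75.1 to 109.6 in mock and 165 to 218 in Nup98::Nsd1 cells, rose by 1.11.

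The kinetochore genes were split within a single complex. Of 7 genes, 5 rose (71.4%) and 2 fell (28.6%), beside 42.9% higher and 29.5% lower of all tested genes. Ndc80, the microtubule-binding subunit, had mock signals of 969, 970.3 and 995 and Nup98::Nsd1 signals of 1799, 1666 and 1884. It rose by 0.86 ± 0.058 (limma adjusted p = 1.29e-07). Its direct partner Nuf2 had mock signals of 1733, 1699 and 1693 and Nup98::Nsd1 signals of 1281, 1146 and 1093, a fall of 0.55 ± 0.063 (limma adjusted p = 1.16e-05). The other pair of subunits was split as well. Spc24 had mock signals of 2914, 2919.8 and 2871 and Nup98::Nsd1 signals of 2004, 1954 and 1977, a fall of 0.55 ± 0.042 (limma adjusted p = 3.65e-07). Spc25, to which it binds, rose by 0.20, from a mean of 2099 ± 127 to 2404 ± 35.1 (limma adjusted p = 0.00545).

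The large outer proteins Cenpe, a kinesin that carries chromosomes to the spindle equator, and Cenpf rose by 0.86 and 0.74. Cenpe had mock signals of 1043, 1072 and 1058 and Nup98::Nsd1 signals of 1820.5, 1854 and 2094, and its other probe set rose by 0.94. Cenpa, the histone that marks the centromere, rose by 0.21 at its brightest probe set, from 5091 ± 152 to 5879 ± 89.3. A dimmer Cenpa probe set had signals of 279, 309 and 301 in mock, none called Present, and 999.6, 1236 and 945 in Nup98::Nsd1 cells, a fitted rise of 1.83. This probe set was tested only through the group in which it was higher, so its direction adds little. Another Cenpa probe set, with mock signals of 27.2 to 62.2, rose by 0.91 (limma adjusted p = 0.025). Under the scaling to hybridization controls described below, the brightest Cenpa probe set changed by -0.16 and was called lower.

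Among the kinesins, 5 of 7 rose, Kif20a fell and Kif23 did not pass. Kif22, the chromosome arm motor Kid, had mock signals of 7030.4, 7165 and 7461 and Nup98::Nsd1 signals of 10643, 10509 and 9945. It rose by 0.52 ± 0.043 (limma adjusted p = 6.40e-07), and its other 2 probe sets rose by 0.58 and 0.67. Kif20a, a midzone kinesin needed for cytokinesis, had mock signals of 2298, 2344 and 2543 and Nup98::Nsd1 signals of 2084, 1954 and 2092, and fell by 0.23 ± 0.054 (limma adjusted p = 0.00247). Its relative Kif20b rose by 0.39 at its brightest probe set, while 1 dimmer one changed by -0.015 (limma adjusted p = 0.884). Another, with signals from 16.2 to 69.9, rose by 1.29. It was Present on 1 mock and 3 Nup98::Nsd1 arrays, so it was tested only through the group in which it was higher. Kif4, a chromosome and midzone kinesin, rose by 0.19. The Kif4 call was lost without mock 3 (log2 0.16, limma adjusted p = 0.0563). Kif23, the kinesin of the centralspindlin complex, had overlapping signals and a log2 change of 0.026 (limma adjusted p = 0.703) at its brightest probe set and fell by 0.22 at a dimmer one (limma adjusted p = 0.0245).

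For 2 kinesins the probe sets were called in opposite directions. Kif11, or Eg5, which pushes the spindle poles apart, had mock signals of 2013, 1732 and 1814 and Nup98::Nsd1 signals of 2339.7, 2507 and 2371 at its brightest probe set, a rise of 0.38. Another probe set gave 1491, 1475 and 1733 in mock and 1353, 1246 and 1303 in Nup98::Nsd1 cells, a fall of 0.27 (limma adjusted p = 0.00465). For Kif2c, the microtubule depolymerase MCAK, signals were 2354, 2222 and 2308 in mock and 2863, 2742 and 2854 in Nup98::Nsd1 cells, a rise of 0.30. A dimmer probe set of Kif2c had 884, 996 and 873 in mock and 808, 803 and 822 in Nup98::Nsd1 cells and fell by 0.18 (limma adjusted p = 0.0372). With Incenp and Ttk these made 4 genes called in opposite directions by their own probe sets, of the 27 mitotic genes with several tested probe sets (14.8%). Over all 4711 tested genes with several, the share was 12.7%. Of the other 23 mitotic genes, 15 had the same call at each tested probe set and 8 had 1 kind of call beside probe sets that did not pass.

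All 7 genes of the spindle, midzone and cleavage furrow rose on the scale of the deposited signals, beside 42.9% of all tested genes. This count depended on the scalings described below. With arrays centred on their median, 2 of the 7 were higher, and with scaling to hybridization controls 2 were higher and 2 lower. Ect2, the exchange factor that activates RhoA at the furrow, had mock signals of 1561, 1468 and 1362 and Nup98::Nsd1 signals of 2864, 3018 and 2530.0. It rose by 0.94 ± 0.071 (limma adjusted p = 3.47e-07). Hmmr, a spindle protein that binds hyaluronan, rose by 0.69 at the brightest of its 5 tested probe sets, and 4 of the 5 were called higher. The others rose less: Prc1, the midzone bundling protein, by 0.25, Anln, or anillin, by 0.24, Tpx2, the activator of Aurka, by 0.21, and Nusap1, a microtubule-stabilizing protein, by 0.20. Racgap1, the GAP of centralspindlin, rose by 0.22, from signals of 2428, 2559.7 and 2620.0 to 2957, 2617 and 3311, with a single Nup98::Nsd1 array inside the mock range. Its call was lost without mock 1, Nup98::Nsd1 1 or Nup98::Nsd1 3, with adjusted p-values up to 0.0826. Its other probe set rose by 0.20 (limma adjusted p = 0.00378).

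Of the last 3 genes, Mki67 and Top2a rose. Mki67 had mock signals of 5648, 6066 and 6408 and Nup98::Nsd1 signals of 12934, 12497 and 13480.3, a log2 change of 1.10 ± 0.051 (limma adjusted p = 6.90e-09). Top2a, the topoisomerase that untangles sister chromatids, rose by 0.20 at its brightest probe set, from a mean of 11203 ± 559.8 to 12838 ± 568, and by 0.67 at a dimmer one. Foxm1, a transcription factor of late cell cycle genes, had probe sets that did not give 1 result. Its brightest probe set over all arrays changed by 0.13 (limma adjusted p = 0.302), Present on 3 mock arrays and 1 Nup98::Nsd1 array. Of the other 2 tested probe sets, 1 rose by 0.33, Present on all 6 arrays. The last rose by 0.75, Present on 2 mock and 3 Nup98::Nsd1 arrays, and was tested only through the group in which it was higher.

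The calls of many mitotic genes depended on how the arrays were scaled. The deposited signals had the same trimmed mean on every array. Of 5 scalings tried, quantile normalization moved the median log2 change of all tested genes to 0.01, centring on the median to -0.054, centring on the 75th percentile to -0.081, and scaling to 18 hybridization control probe sets, which detect labelled cRNA added to the hybridization mix, to -0.25. The counts of mitotic genes higher and lower were 33 and 7 under quantile normalization, 19 and 9 under median centring, 18 and 10 under the 75th percentile and 13 and 18 under the hybridization controls. The shares of all genes higher and lower under the same 4 scalings were 36.3% and 33.2%, 31.9% and 39.1%, 30.3% and 40.9%, and 21.1% and 50.4%. The median over the mitotic genes was 0.34 under quantile normalization, and 0.073, 0.047 and -0.12 under the other scalings, which move every gene of an array alike and so keep the distance to the median of all genes.

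The mitotic genes were sorted by their calls under these scalings, each at its brightest tested probe set. Under all 5 scalings 13 genes were higher: Cdc25b, Plk1, Plk4, Bub1b, Cdca8, Cdc20, Cenpe, Cenpf, Ndc80, Kif22, Hmmr, Ect2 and Mki67. They are 29.5% of the 44, against 20.9% of all tested genes. Under all 5 scalings 7 were lower: Cdk1, Aurkb, Ttk, Mad2l1, Nuf2, Spc24 and Kif20a, or 15.9% against 27.4%. For Ttk this holds at the brightest probe set only, since its other probe set rose by 0.95 as deposited. Another 9, namely Ccnb2, Bub1, Birc5, Bub3, Cenpa, Spc25, Tpx2, Nusap1 and Top2a, were called higher under at least 1 scaling and lower under at least 1 other, or 20.5% against 4.40% of all tested genes. The other 15 were called in 1 direction under some scalings or passed under none. Mki67 ranged from 0.74 to 1.22 and Aurkb from -1.02 to -0.61, whereas Top2a ranged from -0.17 to 0.27. Of the 32 genes higher as deposited, those outside the 13 lost that call under at least 1 scaling.

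**Figure D3:**
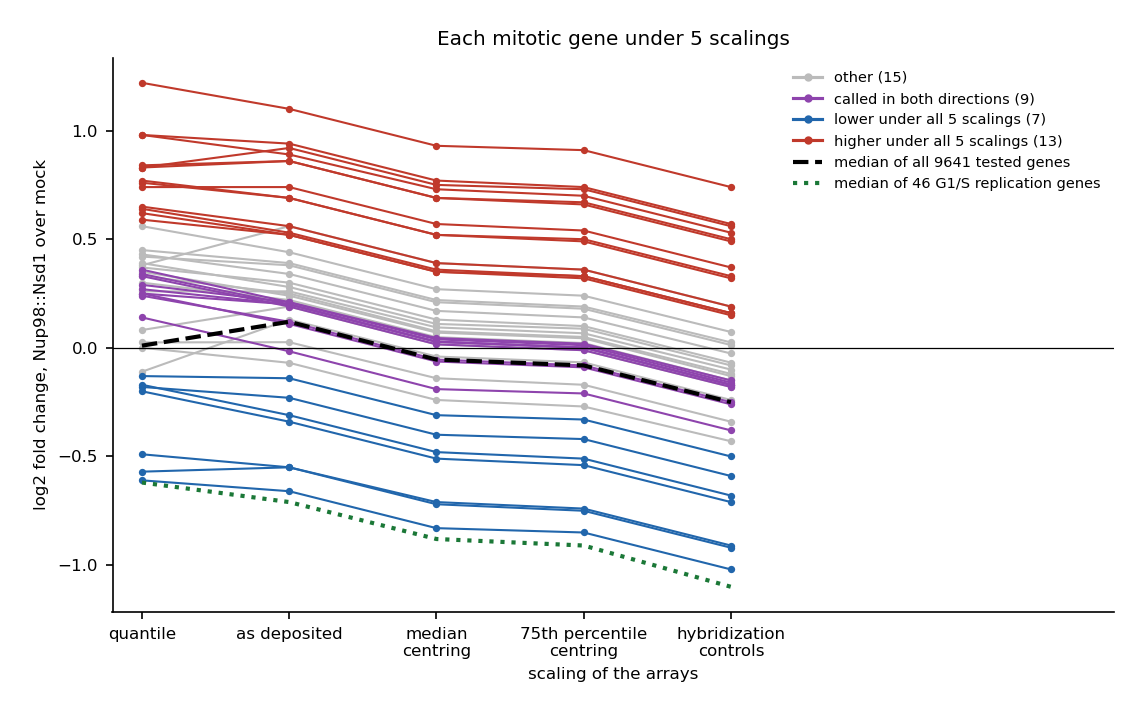
Log2 fold change of each of the 44 mitotic genes (vertical axis) under 5 scalings of the arrays (horizontal axis), 1 line per gene, coloured by its calls. The 13 red lines stay above 0 and the 7 blue lines below it; the 9 purple lines lie on both sides of 0, depending on the scaling, the dashed line is the median of all 9641 tested genes, and the dotted line is the median of 46 G1/S and replication genes.

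Changes within a complex can be compared by the ratio of 2 genes on the same array, which a factor common to the whole array leaves unchanged. Quantile normalization is not such a factor, and the ratios were taken from the deposited signals only. Such a ratio of signals from different probe sets has no meaning as a level, but its difference between the groups shows unequal change. For 14 pairs of partners or relatives, chosen after their values were seen, the groups of 3 against 3 allow no exact permutation p below 0.1, two-sided. The Ndc80 to Nuf2 log2 ratio was -0.84, -0.81 and -0.77 in mock and 0.49, 0.54 and 0.79 in Nup98::Nsd1 cells, a difference of 1.41. The Spc24 to Spc25 ratio differed by -0.75. In both pairs of the Ndc80 complex the ratio of the subunits thus lay apart between the groups.

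The ratio of Aurkb to each of its partners was lower on all 3 Nup98::Nsd1 arrays. The Aurkb to Cdca8 ratio was -1.03, -1.05 and -1.14 in mock and -2.20, -2.32 and -2.25 in Nup98::Nsd1 cells. Its difference was -1.18, and that of Aurkb to Birc5 was -0.64. The Aurkb to Incenp ratio was -1.47, -1.40 and -1.48 in mock and -2.42, -2.53 and -2.40 in Nup98::Nsd1 cells. The ratio of Aurka to Aurkb differed by 0.59 and that of Aurka to its activator Tpx2 by -0.28. The ratio to Cdk1 differed by 0.53 for Ccnb2 and by 0.78 for Ccna2, or by 0.25 with the other Ccna2 probe set, and that of Ect2 to Racgap1 by 0.72. Smaller differences were 0.26 for Cdc20 to Fzr1 and -0.19 for Kif23 to Racgap1. In these 12 pairs no Nup98::Nsd1 array overlapped a mock array, each at the smallest exact permutation p of 0.1 (0.117 after Benjamini-Hochberg adjustment over the 14 pairs). Single genes lay apart in this way for 75.1% of all tested genes. The share over other pairs of genes was not counted, so the count of pairs has no background. Prc1 to Kif4 differed by 0.06 (exact permutation p = 0.3) and Bub1 to Bub3 by 0.0095 (exact permutation p = 1), with overlapping arrays. Of 12 pairs in which a gene had several tested probe sets, 11 kept the sign of the difference over all combinations, an alternative chosen after seeing the data. The size ranged from -1.47 to -0.29 for Aurkb to Incenp, from -0.44 to -0.28 for Aurka to Tpx2, from -0.44 to -0.18 for Kif23 to Racgap1, from 0.043 to 0.26 for Cdc20 to Fzr1 and from 0.06 to 0.16 for Prc1 to Kif4. Bub1 to Bub3 took both signs, with a highest difference of 0.43.

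**Figure D4:**
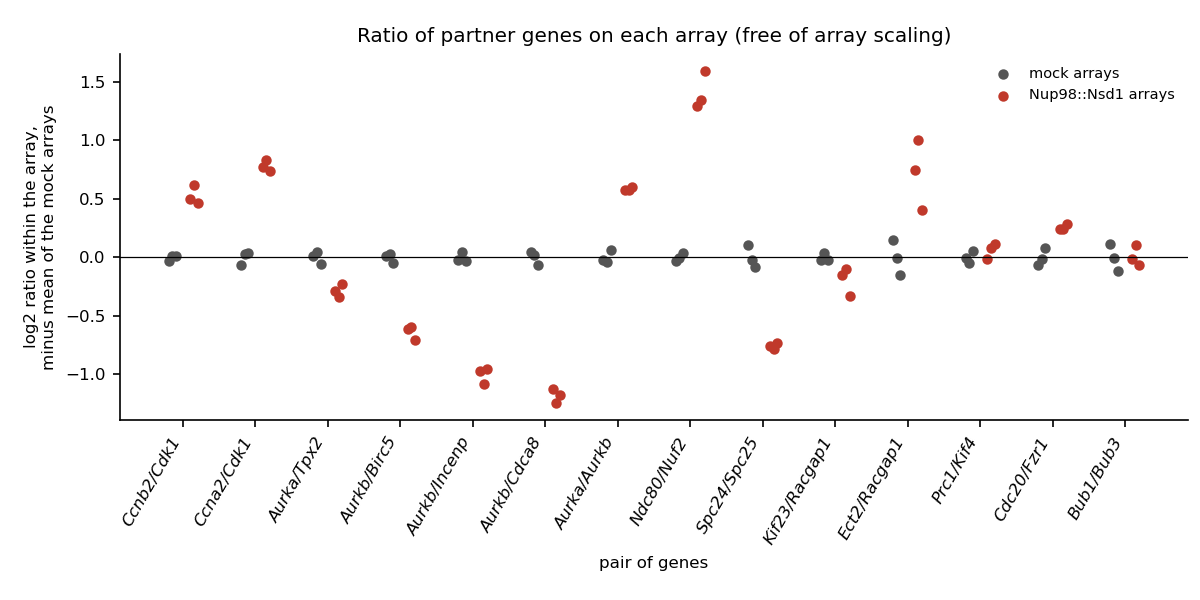
Log2 ratio of 2 genes on the same array minus the mean ratio of the mock arrays (vertical axis) for 14 pairs (horizontal axis), with grey points for the 3 mock and red points for the 3 Nup98::Nsd1 arrays. The Nup98::Nsd1 points lie apart from the mock points for all pairs except Prc1/Kif4 and Bub1/Bub3, farthest for Ndc80/Nuf2 (1.41).

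The promoters of the mitotic genes share sequence features that the list was not chosen by. RefSeq windows of 300 bases, from 250 before to 50 after the transcription start on GRCm38.p6, were searched for the cell cycle homology region TTTGAA, a site of the MuvB core, for CCAAT, the site of NF-Y, and for the E2F site GCGGGAAA, each on both strands. None of the searched words contains another. Of the 45 genes, 37 had a window, and Ccna2, Cdc25c, Aurkb, Incenp, Spc24, Kif20a, Tpx2 and Foxm1 did not. TTTGAA was found in 27 of 37 mitotic genes (73.0%) and in 20.2% of all 27025 genes with a window. CCAAT was found in 28 of 37 (75.7%) and in 41.1%. The word GCGGGAAA was in 0 of 37 and in 1.24% of all genes. Beside so low a share, 0 of 37 does not show that E2F sites are lacking, and other forms of the site were not searched. A match is a description of these windows and not a shown site.

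The upstream bases of 3 genes show how these words are placed in a gene that was higher under all 5 scalings (Cdc20), one that was called both ways (Top2a) and one that was lower under all 5 (Cdk1). Each line gives the 250 bases before the start on the strand of the gene, 5′ to 3′, with TTTGAA or TTCAAA and CCAAT or ATTGG in capitals. Cdc20 lies on chr4:118437344-118437593, Top2a on chr11:99024190-99024439 and Cdk1 on chr10:69352913-69353162, all on the minus strand.
Cdc20: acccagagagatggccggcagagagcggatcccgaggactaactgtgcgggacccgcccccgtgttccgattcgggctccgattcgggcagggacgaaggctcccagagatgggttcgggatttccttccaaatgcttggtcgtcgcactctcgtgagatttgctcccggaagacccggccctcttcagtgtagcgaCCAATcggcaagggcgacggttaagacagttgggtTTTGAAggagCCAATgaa
Top2a: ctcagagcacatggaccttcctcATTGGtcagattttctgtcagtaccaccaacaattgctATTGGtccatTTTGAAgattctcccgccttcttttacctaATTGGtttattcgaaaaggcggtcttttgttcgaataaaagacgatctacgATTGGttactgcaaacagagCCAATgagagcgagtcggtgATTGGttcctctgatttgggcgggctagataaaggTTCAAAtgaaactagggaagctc
Cdk1: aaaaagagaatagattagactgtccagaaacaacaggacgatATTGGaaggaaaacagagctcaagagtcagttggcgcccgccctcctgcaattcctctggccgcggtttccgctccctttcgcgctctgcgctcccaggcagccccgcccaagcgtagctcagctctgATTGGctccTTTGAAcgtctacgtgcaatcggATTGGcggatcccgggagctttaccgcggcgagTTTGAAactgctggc
Positions of the first letter of a word are counted from the start, with -1 for the base just before it. In Cdc20 the TTTGAA word is at -18, between CCAAT words at -53 and -8. In Cdk1 the TTTGAA words are at -71 and -15 and the ATTGG words at -208, -80 and -48. In Top2a TTTGAA is at -179 and TTCAAA at -23, among 6 CCAAT or ATTGG words. All 3 promoters hold both words before the start. Cdc20 was higher and Cdk1 lower under each scaling, while the call of Top2a changed with the scaling. Whether the words bear on the direction of a gene was not tested.

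The words were found in genes of both directions. Among the 13 genes higher under all 5 scalings, 10 had TTTGAA and 11 had CCAAT. Among the 7 lower under all 5, 4 had a window, of which 2, Cdk1 and Ttk, had TTTGAA and CCAAT and 2, Mad2l1 and Nuf2, had neither. Of 39 G1/S and replication genes with a window, 7 (17.9%) had TTTGAA, 25 (64.1%) had CCAAT and 6 (15.4%) had GCGGGAAA.

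Further genes of mitosis were counted beside the list, against 42.9% higher and 29.5% lower of all tested genes. Of 30 further kinetochore genes tested, 9 rose (30.0%) and 12 fell (40.0%), with a median log2 change of 0.011. Under the hybridization controls 2 were higher and 20 lower. Cenpi (0.82), Cenpt (0.69) and Ska1 (0.52) rose most, and Cenph (-0.72), Cenpk (-0.50) and Cenpw (-0.49) fell most. These are subunits of the inner kinetochore network and, for Ska1, of the microtubule-tracking Ska complex. Of 29 further spindle and cytokinesis genes, 13 rose (44.8%) and 10 fell (34.5%), shares near those of all genes (median 0.096), and under the hybridization controls 6 were higher and 15 lower. Psrc1, a spindle protein, was Present on none of the 3 mock arrays, with signals of 11.2, 11.8 and 7.05, and on all 3 Nup98::Nsd1 arrays, with signals of 2569, 2557 and 2498. The rise was 241-fold when mock signals of Psrc1 below the lowest Present signal of any probe set on their array were raised to it. This is not a lower limit, because other probe sets were not called Present at higher signals. A Cenpa probe set, for one, was Present on no mock array at signals of 279 to 309. Next were Ckap5 (0.75), a microtubule polymerase, and Ckap2l (0.73), a mitotic spindle protein, while Troap (-0.69), Gtse1 (-0.49) and Pbk (-0.40) fell most.

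In the lists of the APC/C, the chromosome complexes and the cell cycle regulators the counts moved with the scaling, and each is given as deposited and under the hybridization controls, where 21.1% of all genes were higher and 50.4% lower. Of 18 APC/C and separase genes, 6 rose and 8 fell, and 0 and 15 under those controls: the enzyme Ube2s (0.42) and the securin Pttg1 (0.41) rose most, then the subunit Anapc16 (0.28), and the subunits Anapc15 (-0.54), Anapc10 (-0.46) and Cdc23 (-0.38) fell most. Of 18 condensin and cohesin genes, 5 rose and 8 fell as deposited, 7 and 6 did under quantile normalization, and 1 and 13 under the controls. The cohesin partners Smc1a (0.93) and Smc3 (-0.62) went opposite ways, Ncapd2 (0.46) and Ncaph2 (0.27) rose, and the condensin genes Ncapg2 (-0.72) and Smc2 (-0.46) fell. Of 18 DREAM, E2F and pocket protein genes, 6 rose and 8 fell, and 1 and 12 under the controls. The late cell cycle activator Mybl2, or B-Myb, fell by 1.03, the E2F partner Tfdp1 by 1.32 and E2f6 by 0.78, while E2f5 (1.25), E2f2 (0.45) and Tfdp2 (0.44) rose. The list of G1 cyclins, their kinases and inhibitors also held Wee1, Pkmyt1, Cdc25a, Ccng1 and Ccng2. Of its 17 tested genes, 7 rose and 9 fell, and 2 and 11 under the controls. Ccng2 (1.74), Cdkn1b (1.22) and Ccnd1 (0.82) rose most, and Ccne2 (-1.51), Cdc25a (-1.27) and Cdk2 (-0.55) fell most.

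The genes of the G1/S transition and DNA replication went down nearly as a whole. Of 46 tested, 43 fell, 2 rose and 1 did not pass, with a median log2 change of -0.71, and the count of falls was 43 or 44 under each of the 5 scalings. Cdc6 (-1.78), Mcm4 (-1.48) and Gins1 (-1.43), which license origins and unwind DNA, fell most, and Pole (0.76) and Tyms (0.75) rose. On the same arrays, 32 of 44 mitotic genes and 2 of 46 G1/S and replication genes were higher as deposited, and 13 of 44 and 1 of 46 under the hybridization controls.

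**Figure D5:**
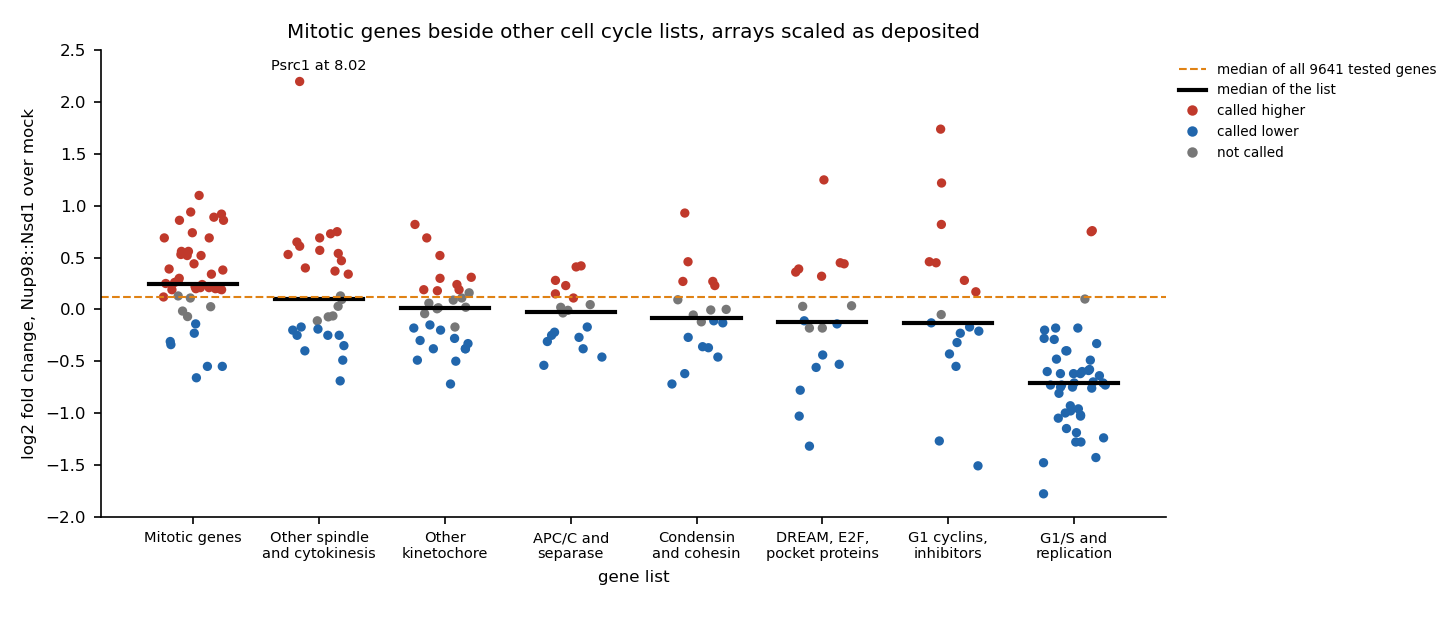
Log2 fold change of Nup98::Nsd1 over mock (vertical axis) for each tested gene of 8 cell cycle lists (horizontal axis), coloured by call, with a black bar at the median of each list and a dashed line at the median of all 9641 tested genes (0.12). The medians run from 0.24 in the mitotic genes to -0.71 in the G1/S and replication genes; Psrc1, at 8.02, is drawn at the top edge.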

How the data were processed

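RNA of 3 mock and 3 Nup98::Nsd1 samples was measured on 1 Affymetrix array each. The deposited signal is an intensity on a linear scale made with MAS5, per the submitters' processing notes. For each signal the authors also deposited a detection p-value and the resulting call (Present, Marginal or Absent). Which MAS5 version and scaling target were used is not given in the sources used.

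A floor of 1 was applied to 3183 signals below it, and log2 values were used without further scaling. Gene symbols came from the platform annotation of 2016, updated through Entrez identifiers. Of 45037 probe sets, 34945 had 1 symbol, and no gene was named from one with several. The comparison of the groups used limma 3.58.1 (R 4.3.3) with an intensity trend, fitted over the 20494 tested probe sets. The fit was tested on simulated data. Fold changes are on the log2 scale, and the number of arrays limits the precision. The replicate numbers did not pair the arrays (correlations of same-numbered deviations -0.02, -0.01 and 0.02). Per-array signals are given for the genes with the largest called change in each role, and for genes whose probe sets disagree; further genes are named beside them. From each other list, up to 3 called genes with the largest change per direction are named. The genes and lists were chosen with earlier results of these data known. Alternatives were other pseudocounts, detection filters, scalings, variance models and probe set rules, the series matrix, the replicate block, and leaving out each array.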

Additional observations from a re-analysis of the deposited data

How the results depend on the processing

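The counts of mitotic genes depended on the scaling: 19 were higher under median centring, 18 under the 75th percentile, and 13 higher and 18 lower under the hybridization controls, where 1 G1/S gene was higher. Without each array in turn, 30 to 32 mitotic genes were higher and 6 to 7 lower, and 2 to 3 G1/S genes were higher and 42 to 43 lower. Under the other alternatives each of these counts stayed within 1.5 times of that reported. With the replicate number as a block, 31 were higher and 7 lower, and the block changed 1 call among the mitotic genes, Bub1 (limma adjusted p = 0.0596). Among genes called as deposited or under the alternative, signs turned under the hybridization controls for Ccnb2 and Kif4 (-0.18), Bub1 (-0.25), Incenp (-0.026), Bub3 (-0.26), Fzr1 (-0.10), Ube2c (-0.081), Cenpa (-0.16), Spc25, Nusap1 and Top2a (-0.17), Kif2c (-0.068), Kif23 (-0.34), Tpx2 and Racgap1 (-0.15), Prc1 (-0.12) and Anln (-0.13). They turned under the 75th percentile for Ccnb2 and Kif4 (-0.011), Bub1 (-0.081) and Kif23 (-0.17), under median centring for Bub1 (-0.054), and under quantile normalization for Birc5 (0.14). Signs of genes called under neither also turned, for Foxm1 (-0.11 under quantile normalization, -0.04 under median centring, -0.067 under the 75th percentile and -0.24 under the hybridization controls), Bub3 (-0.063 under median centring and -0.09 under the 75th percentile), Kif23 (-0.14 under median centring, -0.096 with the mean of its probe sets and -0.016 without mock 1), Birc5 (0.023 without Nup98::Nsd1 2) and Aurka (0.00041 under quantile normalization). Ttk turned to 0.41 with the mean of its probe sets and to 0.95 with that of smallest p, and Kif23 turned to -0.22 with the latter. Which scaling is nearest to the true amounts was not tested. Probe sets that were Present on some arrays only limit what can be said of Foxm1 and of dimmer probe sets of Cenpa and Kif20b.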
